A study of Mus musculus with 9 samples.

Results

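Transcripts of 10 neutrophil genes were followed in myeloid cells sorted from dystrophic muscle: the calprotectin genes *S100a8* and *S100a9*, the primary granule gene *Elane*, the specific granule genes *Ngp*, *Camp*, *Ltf*, and *Lcn2*, the granule metalloproteinase genes *Mmp8* and *Mmp9*, and the resistin-like gene *Retnlg*. They were taken by symbol from the 50559 genes listed for each library, and all 10 were among the 16618 genes tested. They were chosen by their expression levels in these same libraries, which differed between pools and treatments, so that the levels and changes are given as a description, and the *P* values are those of a fit across all genes and support nothing further about the choice.

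All libraries came from *mdx* mice, which lack dystrophin and serve as a model of Duchenne muscular dystrophy, and no wild-type libraries were analysed here. Mice drank water with sucralose alone (vehicle), with spironolactone, an antagonist of the mineralocorticoid receptor, at 250 mg/L, or with prednisolone, a glucocorticoid receptor agonist, at 6.7 mg/L. Treatment began at 3.5 weeks of age, and cells were taken after 7 days, at 4.5 weeks. CD45+CD11b+ cells of the quadriceps were sorted without a gate for the neutrophil antigen Ly6G, and each of the 3 libraries per group pooled the muscles of 3 mice. Mice of both sexes were used, and the sexes within each pool are not given in the sources used here.

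Neutrophils fill their granules in steps while they mature in the bone marrow. Proteases such as elastase are made for primary granules at the promyelocyte stage, antimicrobial proteins such as lactoferrin for specific granules at the myelocyte stage, and gelatinase later, and most of these transcripts are low in the mature cells that reach tissue. S100A8 and S100A9 differ from them in that they form calprotectin, an abundant calcium- and zinc-binding complex of the cytosol, whose transcripts persist in mature neutrophils and are also found in monocytes. *Mmp9* and *Lcn2* are also expressed by activated macrophages, which make up much of the infiltrate of dystrophic muscle.

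The genes with the widest range here, *Ngp*, *Camp*, and *Ltf*, lie on chromosome 9 in GRCm39, at chr9:110248815-110252086 (+ strand), chr9:109676442-109678685 (- strand), and chr9:110848339-110871835 (+ strand), and *Elane* lies at chr10:79722081-79724051 (+ strand). Their upstream sequences are shown because these 4 genes had the widest ranges of the 10 over the libraries. Each is the stretch of the RefSeq promoter window (GRCm38.p6 table, matched exactly once to GRCm39) that lies before the first base of the GENCODE gene, written 5′ to 3′ on the strand of the gene. Capitals mark matches to the core motif of C/EBP factors, TTGCNNAA on either strand. The stretches are chr9:110248626-110248814, chr9:109678686-109678774 (- strand), chr9:110848110-110848338, and chr10:79721896-79722080.
*Ngp*: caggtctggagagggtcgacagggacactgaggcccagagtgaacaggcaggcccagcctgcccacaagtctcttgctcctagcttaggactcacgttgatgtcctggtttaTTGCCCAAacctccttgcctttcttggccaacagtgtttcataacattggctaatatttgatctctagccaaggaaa
*Camp*: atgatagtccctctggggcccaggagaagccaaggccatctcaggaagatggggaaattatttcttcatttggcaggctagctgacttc
*Ltf*: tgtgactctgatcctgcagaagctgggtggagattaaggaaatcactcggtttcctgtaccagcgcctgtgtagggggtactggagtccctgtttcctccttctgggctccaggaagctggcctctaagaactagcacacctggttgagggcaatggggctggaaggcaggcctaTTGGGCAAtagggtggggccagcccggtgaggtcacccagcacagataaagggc
*Elane*: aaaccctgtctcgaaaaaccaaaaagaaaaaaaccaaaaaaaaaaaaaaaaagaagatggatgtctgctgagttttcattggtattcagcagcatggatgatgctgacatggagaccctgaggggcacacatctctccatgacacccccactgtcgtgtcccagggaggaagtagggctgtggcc

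Promoter windows, from 250 bases before to 50 bases after the RefSeq start site, were found for 9 of the 10 genes, and *Mmp9* had none in the table. TTGCNNAA, searched on both strands, was present in 6 of the 9 windows (*Ngp*, *Ltf*, *Lcn2*, *Mmp8*, *S100a9*, and *Retnlg*) and in 10.8% of all 32851 windows of that length. In *Ngp* it occurred at 2 places, 138 bases (shown above) and 11 bases before the RefSeq start. GAGGAA, a core of the ETS factor PU.1, was found on either strand in 5 of the 9 windows and in 28.3% of all windows. AGAACA, one side of the palindrome bound by the glucocorticoid receptor, was found in 1 of the 9, that of *Elane*, with its first base at position 9 from the start, and in 19.0% of all. These are matches of letters in a fixed window and were not tested for binding.

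Each library held between 31469815 and 32943512 counts on genes, and levels are CPM, the usual library-scaled unit, with library totals adjusted by the trimmed mean of M values (TMM). The gate genes *Ptprc* (CD45) and *Itgam* (CD11b) summed to 1523 to 2146 CPM. A list of 10 macrophage markers summed to 17681 to 20276 CPM, and a list of 10 neutrophil markers, 7 of them members, to 738 to 4792 CPM. *Ly6g*, the defining neutrophil marker of mice, was under 1 CPM in 5 of the 9 libraries (vehicle replicates 1 and 2 and all 3 prednisolone libraries) and highest in vehicle replicate 3 at 13.6 CPM. The other markers of that list that are not members were not low in those 5 libraries, with *Csf3r* at 406 to 556 CPM and *Cxcr2* at 21.5 to 62.0 CPM. In such bulk libraries, fewer neutrophils and less RNA of these genes in each neutrophil cannot be told apart.

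A pair of libraries stood apart. Vehicle replicate 3 had the highest level of all 9 libraries for 10 of the 10 genes, and spironolactone replicate 3 the highest of its group for 10 of 10. The 10 genes summed to 394, 501, and 4605 CPM in vehicle replicates 1, 2, and 3, to 1067, 1036, and 3449 CPM in the spironolactone libraries, and to 589, 574, and 429 CPM in the prednisolone libraries. The sum in vehicle replicate 3 was thus above that of every other library, whereas vehicle replicates 1 and 2 lay near the prednisolone libraries. Results are therefore also given without vehicle replicate 3 and without both libraries. Both choices were made after the levels of these genes were seen. Leaving out libraries picked in this way can narrow the errors, so that *P* values and calls of these fits are given as a description only. Of 56 other genes of neutrophil granules and mature neutrophils, 39 also had their highest level in vehicle replicate 3.

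**Figure D1:**
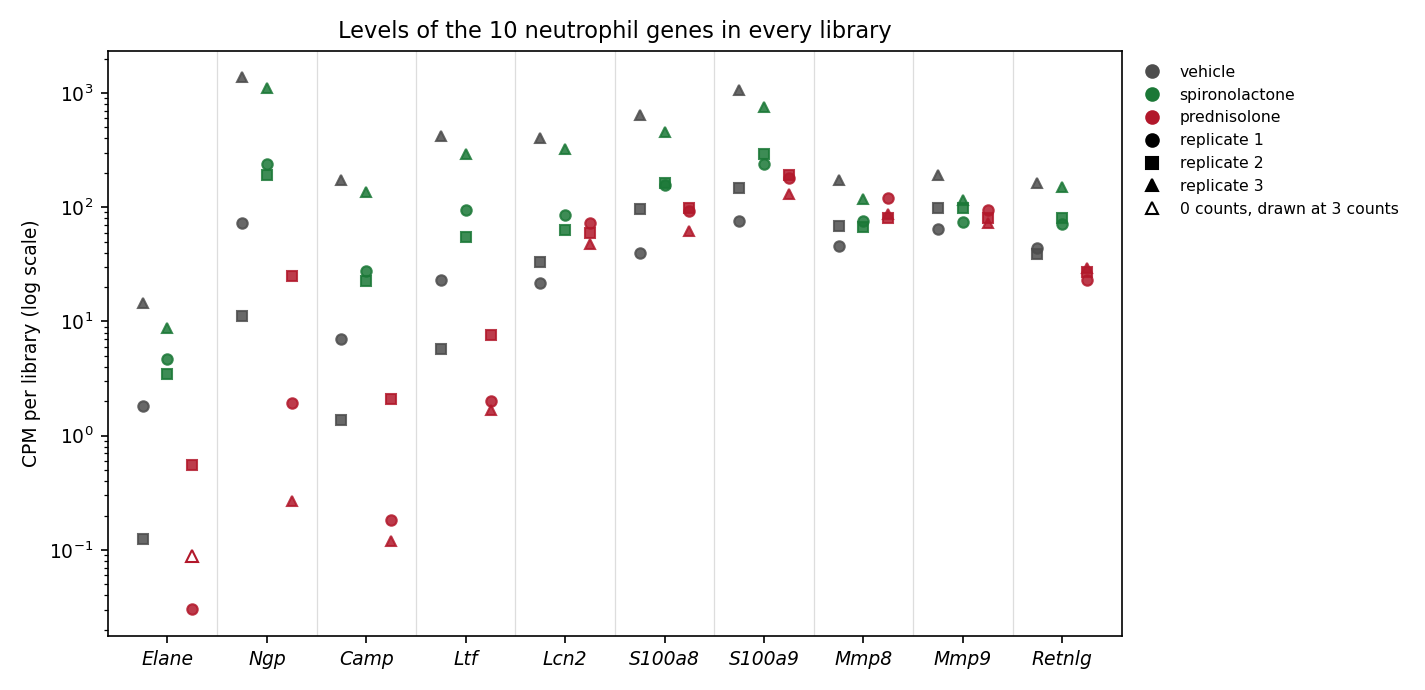
Level of each of the 10 genes in every library, in CPM on a log axis, colored by treatment and shaped by replicate number, with 1 point per pool of 3 mice. The open triangle marks *Elane* in prednisolone replicate 3, with 0 counts, drawn at the 0.0891 CPM that 3 counts would give. The triangles of vehicle replicate 3 are the highest points of all 10 genes.

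*S100a8* and *S100a9* encode the subunits of calprotectin and lie near each other on chromosome 3, at chr3:90567118-90578128 (+ strand) and chr3:90599931-90603071 (- strand), 21802 bases apart. *S100a8* was at 39.4, 96.2, and 645 CPM in vehicle replicates 1 to 3, at 156, 164, and 457 CPM in spironolactone replicates 1 to 3, and at 93.0, 98.6, and 61.5 CPM in prednisolone replicates 1 to 3. *S100a9* was at 75.4, 147, and 1056 CPM in vehicle, at 239, 292, and 749 CPM in spironolactone, and at 181, 193, and 129.7 CPM in prednisolone libraries, in the same order. For both genes the spironolactone libraries were above the prednisolone libraries without overlap, and the vehicle libraries spanned both, with the lowest and the highest of the 9 values. The ratio of *S100a9* to *S100a8* counts stayed between 1.53 and 2.11 in the 9 libraries, while *S100a8* itself varied 16.4-fold.

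*Elane* encodes neutrophil elastase, a serine protease of primary granules. It was at 1.82, 0.125, and 14.5 CPM in vehicle libraries (60, 4, and 466 counts), at 4.71, 3.48, and 8.83 CPM in spironolactone libraries (149, 110, and 279 counts), and at 0.0304, 0.55, and 0 CPM in prednisolone libraries (1, 18, and 0 counts). The 0 counts of prednisolone replicate 3 allow a level of up to 0.0891 CPM, taking 3 counts as the upper limit, which covers counting error only. Every spironolactone library was above every prednisolone library, and vehicle replicate 2 was below prednisolone replicate 2.

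Among the specific granule genes, *Ngp* encodes neutrophilic granule protein, a cystatin-related protein. It was at 72.1, 11.1, and 1369 CPM in vehicle libraries, 239, 190.2, and 1101 CPM in spironolactone libraries, and 1.94, 25.03, and 0.267 CPM in prednisolone libraries. From the lowest to the highest library this was a 5121-fold range, and the value in prednisolone replicate 3 rested on 9 counts. The spironolactone libraries lay above the prednisolone libraries, whereas vehicle replicate 2 was within the prednisolone range.

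*Camp* encodes the precursor of the antimicrobial peptide CRAMP, the mouse cathelicidin. Its levels were 7.05, 1.37, and 172 CPM in vehicle, 27.6, 22.5, and 135 CPM in spironolactone, and 0.182, 2.08, and 0.119 CPM in prednisolone libraries. *Ltf* encodes the iron-binding protein lactoferrin. It was at 23.0, 5.71, and 422 CPM in vehicle, at 93.6, 54.8, and 292 CPM in spironolactone, and at 2.005, 7.61, and 1.66 CPM in prednisolone libraries. Both followed *Ngp*: spironolactone libraries were above prednisolone libraries without overlap, vehicle replicate 2 was below prednisolone replicate 2, and prednisolone replicate 3 was the lowest of all. The ratio of *Ngp* to *Camp* counts was between 7.98 and 12.0 in 8 libraries and 2.25 in prednisolone replicate 3, where it rested on 9 and 4 counts.

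*Lcn2* (chr2:32274645-32278264, - strand) encodes lipocalin 2, which binds bacterial siderophores. It was at 21.7, 33.0, and 400.2 CPM in vehicle, at 85.9, 63.5, and 322 CPM in spironolactone, and at 73.2, 59.4, and 47.2 CPM in prednisolone libraries. Unlike the other specific granule genes it was not near 0 in any library. Its prednisolone levels overlapped those of spironolactone and lay above vehicle replicates 1 and 2 but below vehicle replicate 3.

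*Mmp8* (chr9:7558457-7568487, + strand) encodes neutrophil collagenase and *Mmp9* (chr2:164780439-164797771, + strand) gelatinase B. *Mmp8* was at 45.5, 68.7, and 172 CPM in vehicle, 75.2, 67.1, and 117 CPM in spironolactone, and 119.5, 80.2, and 86.9 CPM in prednisolone libraries. *Mmp9* was at 63.8, 98.2, and 193 CPM in vehicle, 74.2, 99.1, and 116 CPM in spironolactone, and 95.2, 81.1, and 72.2 CPM in prednisolone libraries. The 3 groups overlapped for both genes, and the range over the 9 libraries was narrow next to the granule genes above, at 3.78-fold for *Mmp8* and 3.02-fold for *Mmp9*. *Mmp8* overlaps the predicted gene *Gm31751* on the opposite strand, which had at most 1 count in a library.

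*Retnlg* (chr16:48692547-48694862, + strand) encodes resistin-like gamma, a secreted protein of myeloid cells. It was at 44.0, 38.7, and 162 CPM in vehicle, at 71.9, 79.9, and 151 CPM in spironolactone, and at 23.2, 27.3, and 29.5 CPM in prednisolone libraries. It was the only one of the 10 genes whose prednisolone libraries all lay below all vehicle libraries, and the 3 prednisolone values were close together (26.6 ± 3.17 CPM, SD, n = 3). The spironolactone libraries again lay above all prednisolone libraries.

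Per length of transcript (TPM), the order of the genes differed between groups. In vehicle libraries the mean was highest for *Ngp* (1518 ± 2388 TPM, SD, n = 3), *S100a9* (1437 ± 1821), and *S100a8* (1135 ± 1443), and no gene differed from its neighbor in that order by more than the larger SD except *Elane*, the lowest (24.0 ± 33.9), which followed *Mmp9* (139 ± 74.0). The medians in vehicle gave another order, with *S100a9* at 498 TPM, *S100a8* at 422, and *Ngp* at 247. In spironolactone libraries the same 3 genes came first, at 1609 ± 1573 TPM for *Ngp*, 1450.4 ± 909 for *S100a9*, and 1141 ± 721 for *S100a8*, followed by *Retnlg* at 406 ± 161, and *Elane* was again last at 25.1 ± 11.7. By the median, *S100a9* (992 TPM) was above *Ngp* (803) and *S100a8* (728) in that group. In prednisolone libraries the calprotectin genes came first, at 617 ± 125 TPM for *S100a9* and 402 ± 96.0 for *S100a8*, followed by *Mmp8* at 184 ± 36.5, and then by *Retnlg* (116 ± 15.6), *Lcn2* (107 ± 21.6), and *Mmp9* (105 ± 12.96), which lay within an SD of each other. *Ngp* was seventh there at 31.6 ± 48.4 TPM, followed by *Ltf* (5.004 ± 4.53), *Camp* (4.33 ± 6.11), and *Elane* (0.937 ± 1.502), each within an SD of the next.

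The spread between pools of a group differed among the 10 genes and between the groups. Ranked by the SD of log2 CPM over the 3 vehicle libraries, *Camp* (3.51) was number 1 of 16618 genes, *Ngp* (3.496) number 2, *Ltf* (3.16) number 4, *Elane* (3.15) number 5, *Lcn2* number 16, *S100a8* number 35, *S100a9* number 44, *Retnlg* number 523, *Mmp8* number 843, and *Mmp9* number 1312, where the median gene had an SD of 0.21. Over the 3 prednisolone libraries *Ngp* (3.14) was number 1, *Camp* (1.95) number 4, and *Elane* (1.77) number 8, but *S100a9* (0.31), *Lcn2* (0.32), and *S100a8* (0.37) were far down the order, and *Retnlg* (0.18) was near the median of 0.16. *Camp* and *Elane* had 1 of 3 prednisolone libraries at the level of the low-count filter, so that their ranks there rest on few counts. In prednisolone libraries it was replicate 2 that had the highest *Ngp*, *Camp*, *Ltf*, and *Elane*, with 25.03 CPM of *Ngp* against 1.94 and 0.267 CPM. In the spironolactone group the SD was 1.41 for *Camp*, 1.38 for *Ngp*, and 1.23 for *Ltf*, at ranks 210, 235, and 380.

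**Figure D2:**
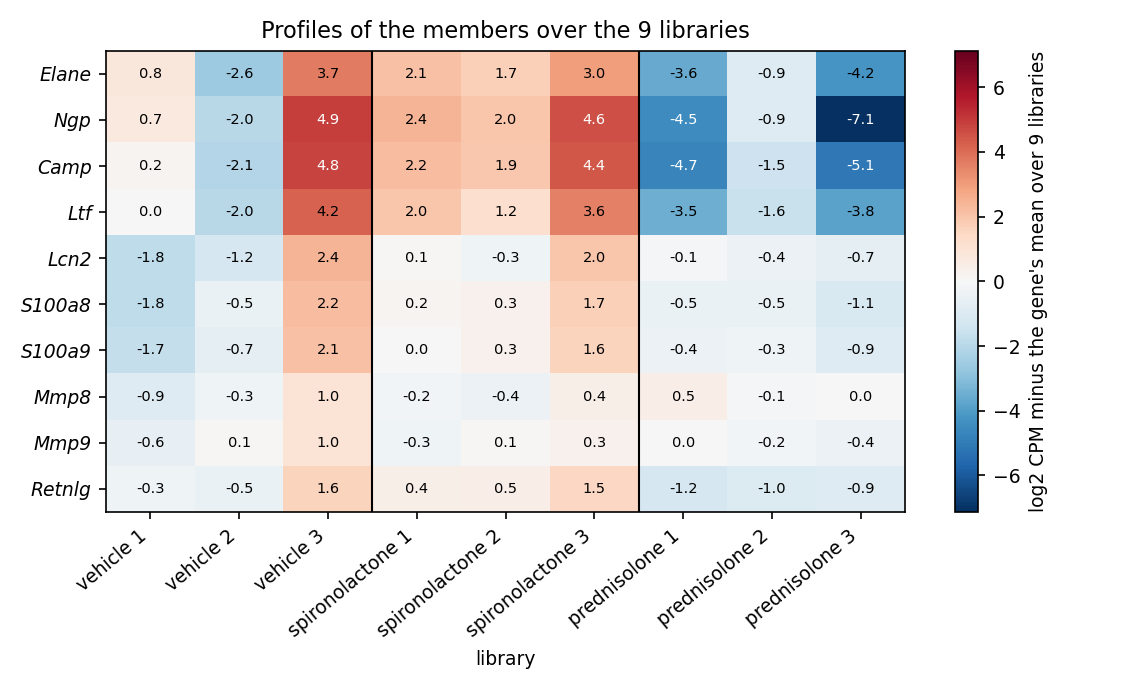
Log2 CPM of each gene in each library minus the mean of that gene over the 9 libraries, with libraries in columns and genes in rows. *Elane*, *Ngp*, *Camp*, and *Ltf* swing widely and are lowest in prednisolone replicates 1 and 3, *Lcn2*, *S100a8*, and *S100a9* are lowest in vehicle replicate 1, and *Mmp8* and *Mmp9* vary least.

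By the likeness of these centered profiles (root mean square of the log2 differences over the 9 libraries, 0 for identical profiles), the closest pair of members was *S100a8* and *S100a9* (0.16), followed by *Mmp8* and *Mmp9* (0.31) and *S100a9* and *Lcn2* (0.33). *Elane* was closest to *Ltf* (0.52), and *Ngp* to *Camp* (0.74). *Ngp* and *Mmp8* were 3.75 apart, the widest distance between members. As a ratio of counts, *S100a8* had 0.41 to 0.86 counts per *Ngp* count in all spironolactone libraries and vehicle replicates 1 and 3, 8.64 in vehicle replicate 2, and 47.8, 3.94, and 230.0 in prednisolone replicates 1, 2, and 3. Outside the members, the profile nearest to *Elane*, *Ngp*, *Camp*, and *Ltf* was that of *Mpo*, myeloperoxidase of primary granules (0.59 from *Camp*), and the profile nearest to *S100a8*, *S100a9*, and *Lcn2* was that of *Wfdc21* (0.35 from *S100a8*). *Bmx* was nearest to *Mmp8* (0.21), *Hsh2d* to *Mmp9* (0.17), and *9830107B12Rik* to *Retnlg* (0.25). The genes nearest to the mean profile of the 10 were *Krt83* (0.48), *Ms4a3* (0.51), *Prom1* (0.53), *9830166K06Rik* (0.55), and *Fcnb* (0.62), all of them at low levels, with no library above 15.96 CPM.

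The first comparison asked how the glucocorticoid changed these transcripts relative to vehicle. With prednisolone, 0 of the 10 genes had a Benjamini-Hochberg adjusted *P* under 0.05 by edgeR's quasi-likelihood test, where 1.76% of all genes tested did, and 4 had an unadjusted *P* under 0.05, as did 14.2% of all genes. DESeq2 called 1 on all libraries and 1 on the pair of groups (4.64% and 4.71% of all genes), and limma-voom 0. DESeq2 gave no adjusted *P* to some of the 10 genes, *Camp* among them. *Elane* and *Camp* passed the low-count filter with 1 of 3 prednisolone libraries at its level, and so mainly through the other groups. No direction count or median over the 10 is therefore given for this comparison. Only *Retnlg* had no overlap of libraries, as lower; 9.27% of all genes had none in that direction. The log2 fold change was -6.24 ± 2.33 (SE) for *Camp* (edgeR adjusted *P* = 0.303), -5.74 ± 2.37 for *Ngp* (0.354), -5.32 ± 1.92 for *Ltf* (0.286), -4.81 ± 1.83 for *Elane* (0.306), and -1.61 ± 0.63 for *Retnlg* (0.324). For *S100a8* it was -1.62 ± 1.07, for *S100a9* -1.35 ± 1.04, for *Lcn2* -1.34 ± 1.24, for *Mmp9* -0.51 ± 0.40, and for *Mmp8* 0.0017 ± 0.51, with edgeR adjusted *P* from 0.576 to 0.999.

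These sizes rested on vehicle replicate 3. Without it the log2 fold change was -2.42 ± 1.64 for *Camp*, -2.20 ± 1.74 for *Ngp*, -1.94 ± 1.17 for *Ltf*, -2.32 ± 1.39 for *Elane*, and -0.63 ± 0.31 for *Retnlg*, and turned to 0.32 ± 0.65 for *S100a8*, 0.60 ± 0.59 for *S100a9*, 1.13 ± 0.80 for *Lcn2*, and 0.036 ± 0.21 for *Mmp9*. None of the 10 had an edgeR adjusted *P* under 0.05 then, and 1, *Mmp8* at 0.75 ± 0.30, had an unadjusted one (11.8% of all genes in that fit). The remaining vehicle libraries were below every prednisolone library for *Lcn2* and *Mmp8* (14.7% of all genes in that direction) and above them for *Retnlg* (14.1%). Without both vehicle replicate 3 and spironolactone replicate 3, *Retnlg* was past the threshold at -0.63 ± 0.12 (edgeR adjusted *P* = 0.0405). *Retnlg*, *Ngp*, *Camp*, *Ltf*, and *Elane* were fitted lower with prednisolone in each of these fits. The fits share the prednisolone libraries, and *Elane* and *Camp* passed the low-count filter mainly through the other groups, so that this adds no support.

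**Figure D3:**
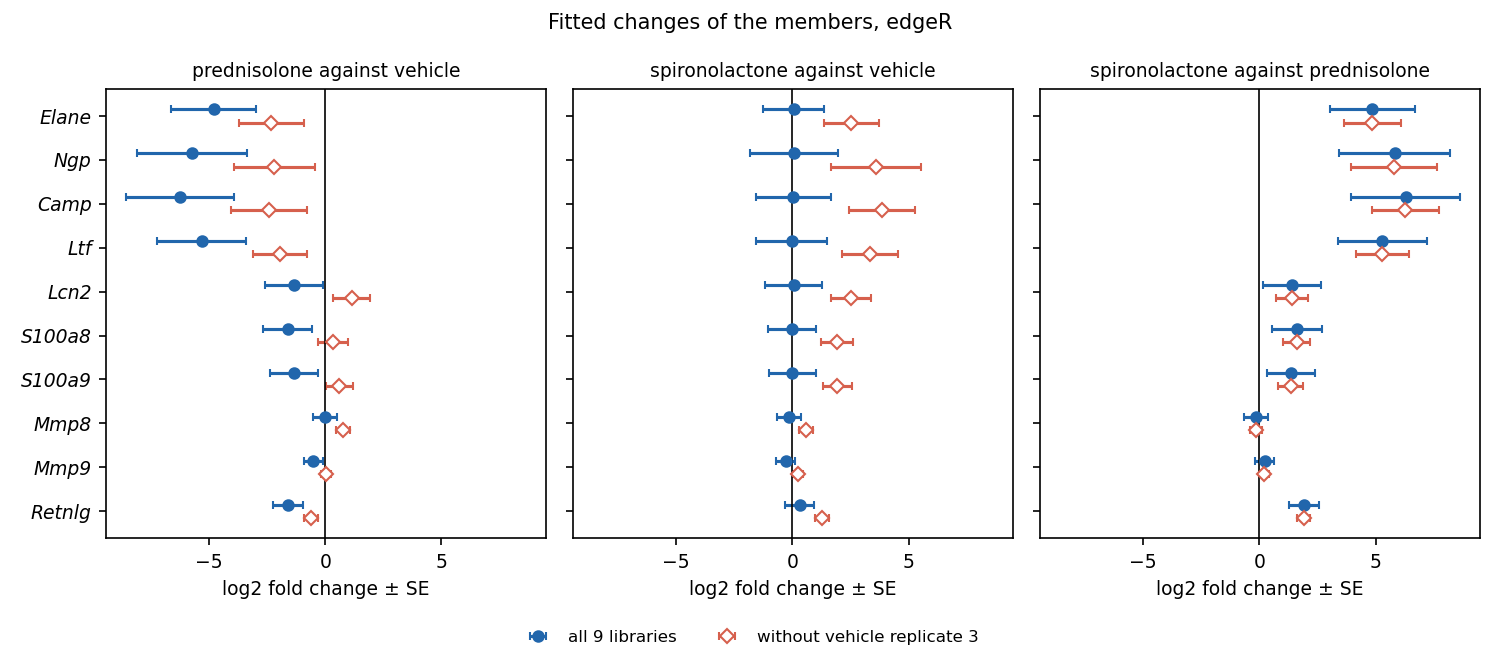
Log2 fold change ± SE of each gene in the 3 comparisons from the edgeR fit of all 9 libraries (filled circles) and of 8 libraries without vehicle replicate 3 (open diamonds). Without that library the values in the left and middle panels, which use vehicle, lie further to the right for all 10 genes, and those of spironolactone against prednisolone nearly coincide, with narrower errors.

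The second comparison asked the same of the mineralocorticoid receptor antagonist. With spironolactone, 0 of the 10 genes had an edgeR adjusted *P* under 0.05 relative to vehicle (0.0181% of all genes did), and 0 had an unadjusted *P* under 0.05 (9.29% of all genes). DESeq2 and limma-voom called 0 as well, but DESeq2 gave no adjusted *P* to some of the 10 genes, *Ngp* and *Camp* among them. The 10 log2 fold changes lay between -0.29 ± 0.40 (*Mmp9*) and 0.31 ± 0.61 (*Retnlg*), with a median of 0.023 beside 0.00 for all genes tested. The errors left room for wide changes: an approximate 95% interval from a normal quantile was 0.076 ± 3.72 for *Ngp*, 0.044 ± 3.18 for *Camp*, and -0.0062 ± 2.04 for *S100a8*. With so few libraries, intervals matched to the edgeR test would be wider. None of the 10 had all spironolactone libraries above or below all vehicle libraries, as 13.5% of all genes had.

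Here too vehicle replicate 3 set the level of the reference. Without it, 8 of the 10 genes, all but *Mmp8* and *Mmp9*, had every spironolactone library above both remaining vehicle libraries, as did 11.3% of all genes. The log2 fold change was then 3.86 ± 1.41 for *Camp*, 3.61 ± 1.94 for *Ngp*, 3.34 ± 1.20 for *Ltf*, 2.53 ± 1.19 for *Elane*, 2.52 ± 0.84 for *Lcn2*, 1.93 ± 0.68 for *S100a8*, 1.93 ± 0.62 for *S100a9*, and 1.28 ± 0.32 for *Retnlg*. Of the 10 genes, 6 had an unadjusted *P* under 0.05 (8.68% of all genes in that fit) and 0 an edgeR adjusted one (lowest 0.326, for *Retnlg*). With spironolactone replicate 3 left out as well, the values were 2.56 ± 1.15 for *Camp*, 2.36 ± 0.97 for *Ltf*, 1.45 ± 0.26 for *Lcn2*, and 0.87 ± 0.13 for *Retnlg*, again with 0 of 10 past the adjusted threshold. The same 8 genes had no overlap (15.6% of all genes in that direction), which leaving out a spironolactone library could not change.

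The third comparison set the drugs against each other and did not use the vehicle levels. All of *S100a8*, *S100a9*, *Elane*, *Ngp*, *Camp*, *Ltf*, and *Retnlg*, 7 of the 10 genes, were higher in every spironolactone library than in any prednisolone library, a pattern found for 15.1% of all genes in that direction. The genes were chosen by these same levels, and *Elane* and *Camp* passed the low-count filter with 1 of 3 prednisolone libraries at its level. The count is therefore a description and supports nothing about the 10 genes as a set. By the edgeR test 0 of 10 had an adjusted *P* under 0.05 (5.17% of all genes), and 5 had an unadjusted *P* under 0.05 (22.5% of all genes). DESeq2 called 2 on all libraries and 6 on the pair of groups, limma-voom 1, and edgeR on the pair 2, where these fits called 1595 of 15892 genes, 13.5%, 4.95%, and 9.98%. Here too DESeq2 left some of the 10 genes without an adjusted *P*. The mean level was 78.0-fold higher with spironolactone for *Camp* (61.8 ± 63.7 and 0.793 ± 1.11 CPM, SD, n = 3), 56.2-fold for *Ngp* (510.2 ± 513 and 9.08 ± 13.8 CPM), 39.0-fold for *Ltf* (147 ± 127 and 3.76 ± 3.34 CPM), and 29.3-fold for *Elane* (5.68 ± 2.80 and 0.194 ± 0.309 CPM). These folds moved with single libraries. Without prednisolone replicate 2 they were 411-fold for *Camp*, 461-fold for *Ngp*, and 80.03-fold for *Ltf*, and *Elane* had 1 count left. Without spironolactone replicate 3 they were 31.6-fold for *Camp*, 23.6-fold for *Ngp*, 19.7-fold for *Ltf*, and 21.2-fold for *Elane*. With all libraries the mean was 3.78-fold higher for *Retnlg* (100.8 ± 43.3 and 26.6 ± 3.17 CPM) and 3.07-fold for *S100a8* (259 ± 172 and 84.3 ± 20.0 CPM), the latter 1.90-fold without spironolactone replicate 3. The means of *Mmp8* (86.4 ± 26.7 and 95.5 ± 21.1 CPM) and *Mmp9* (96.5 ± 21.1 and 82.8 ± 11.6 CPM) were within an SD of each other.

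As log2 fold changes these were 6.29 ± 2.33 for *Camp* (edgeR adjusted *P* = 0.182), 5.81 ± 2.38 for *Ngp* (0.219), 5.29 ± 1.91 for *Ltf* (0.173), 4.86 ± 1.83 for *Elane* (0.183), and 1.92 ± 0.64 for *Retnlg* (0.144). Under 12 other ways of fitting (another test, scaling, filter, or added term), *Retnlg* was past the threshold in 6, and the largest adjusted *P* was 0.231. Without vehicle replicate 3, which enters this comparison only through what the fit shares across groups, *Retnlg* was called at 1.91 ± 0.28 (edgeR adjusted *P* = 0.0134). In the 8 other fits without 1 library it was not called, with values from 1.51 to 2.11 and edgeR adjusted *P* from 0.127 to 0.341 (the last without spironolactone replicate 3). Without both libraries that stood apart it was called at 1.502 ± 0.12 (edgeR adjusted *P* = 0.000429), and the other values were 4.98 ± 1.16 for *Camp*, 4.56 ± 1.75 for *Ngp*, 4.30 ± 0.92 for *Ltf*, and 4.38 ± 1.324 for *Elane*. Leaving out spironolactone replicate 3 could not bring overlap to the same 7 genes, so that its absence then adds nothing. Of all genes, 19.8% had none in that direction. *Mmp8* then had none as lower with spironolactone (18.7% of all genes). The 3 comparisons share libraries, so that their values are not independent of each other.

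Summed markers of some other cells also lay in separate ranges in the drug groups. A list of 7 eosinophil markers, none of them at 0 in every library, summed to 39.6 to 75.5 CPM in vehicle, 32.0 to 53.3 CPM in spironolactone, and 18.0 to 23.1 CPM in prednisolone libraries, and 3 of the 7 passed the test as lower with prednisolone than with vehicle (0.758% of all genes did), by log2 fold changes of -0.65 ± 0.15 for *Siglecf* (edgeR adjusted *P* = 0.0377), -1.20 ± 0.21 for *Ccr3* (0.0128), and -1.80 ± 0.36 for *Il5ra* (0.0226). *Siglecf* was past the threshold in 3 of the 9 fits that left out 1 library, and not without vehicle replicates 2 or 3, spironolactone replicate 3, or any prednisolone library (edgeR adjusted *P* up to 0.157). *Ccr3* lost its call without prednisolone replicates 1 or 2 (up to 0.0998), and *Il5ra* without any prednisolone library (up to 0.117). The eosinophil granule genes *Prg2* and *Epx* were, like the members, highest in vehicle replicate 3, at 23.3 and 9.13 CPM. A list of 4 erythroid markers summed to 59.5 to 116 CPM in vehicle, 153 to 256 CPM in spironolactone, and 30.8 to 69.2 CPM in prednisolone libraries, and a list of 6 lymphocyte markers, with *Trac* at 0 throughout, to 2.49 to 4.77, 6.26 to 10.04, and 1.10 to 2.08 CPM. Summed dendritic cell markers went from 376 to 398, 337 to 513, and 564 to 733 CPM. Summed monocyte markers (8 genes) overlapped between the groups, at 2059 to 3275, 2102 to 2533, and 2388 to 3183 CPM. Of monocyte genes, *Ly6c2* was at 223 to 266 CPM with spironolactone and 77.6 to 181 CPM with prednisolone, and *Plac8* at 109 to 116 and 30.9 to 85.9 CPM. *Vcan* (177 to 267 and 374 to 616 CPM) and *F13a1* (351 to 441 and 666 to 783 CPM) went the other way. Summed mast cell and basophil markers (7 genes) went from 8.45 to 13.8, 15.9 to 51.7, and 13.9 to 22.7 CPM, and skeletal muscle markers (5 genes) from 182 to 278, 340.4 to 568, and 289 to 454 CPM. For the eosinophil, erythroid, lymphocyte, and mast cell and basophil lists the highest vehicle library was replicate 3, and the highest spironolactone library was replicate 3 as well. For the muscle list these were vehicle replicate 2 and spironolactone replicate 3. Their part in the differences of the granule genes was not tested.

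The other genes of neutrophil granules and mature neutrophils, 57 genes in 3 lists, gave 56 genes tested. Relative to vehicle, 1 of the 56 was called with prednisolone, as lower, and 0 with spironolactone (2 at an unadjusted *P* under 0.05; DESeq2 0), and 2 were called between the drugs, both lower with spironolactone. Of all genes tested, 1.76% were called with prednisolone (0.758% as lower) and 5.17% between the drugs (2.79% as lower), so that these counts are no result about the lists, and the genes are given as single values. The gene lower with prednisolone was *Cxcr4*, the chemokine receptor that holds neutrophils in the marrow and is also carried by macrophages (340 ± 9.61 CPM in vehicle and 233 ± 14.8 in prednisolone, SD, n = 3; log2 fold change -0.54 ± 0.10, edgeR adjusted *P* = 0.0130), which was past the threshold in all 12 other ways of fitting and in 7 of the 9 fits without 1 library, but not without prednisolone replicate 1 or 2 (edgeR adjusted *P* up to 0.101). Those between the drugs were *Gda*, guanine deaminase (174 ± 20.3 CPM with spironolactone and 310.4 ± 23.8 with prednisolone; -0.83 ± 0.17, edgeR adjusted *P* = 0.0179), and *Ceacam1*, a surface adhesion molecule (54.3 ± 4.11 and 75.7 ± 7.73 CPM; -0.48 ± 0.12, edgeR adjusted *P* = 0.0399). *Gda* was past it in all 12 other fits and *Ceacam1* in 11. Without 1 library, *Gda* lost its call when spironolactone replicate 1 or 3 or prednisolone replicate 1 or 3 was left out (edgeR adjusted *P* up to 0.0734), and *Ceacam1* when vehicle replicate 2 or any spironolactone or prednisolone library was (up to 0.159). With spironolactone relative to vehicle the smallest *P* belonged to *Gda* (-0.47 ± 0.17, edgeR adjusted *P* = 0.391), *Cxcr4* (-0.22 ± 0.10, 0.508), and *Clec4e*, the C-type lectin Mincle (-0.84 ± 0.37, 0.553).

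Beside *Elane*, the primary granule list held 8 genes, all tested. Of these, 0 were called in any comparison. Of the 8, 4 (*Mpo*, *Ctsg*, *Ms4a3*, and *Prss57*) had 0 or 1 of 3 prednisolone libraries at the level of the low-count filter (0.31 CPM) and passed it through the groups where they were high. No direction count or median log2 fold change over the list is therefore given. Without vehicle replicate 3, 3 were called between the drugs, as higher with spironolactone (*Mpo*, *Ms4a3*, and *Prtn3*; 5.18% of all genes were called), and without both libraries that stood apart 1 was (*Mpo*; 1.68%), where the calls of *Mpo* and *Ms4a3* support nothing for the same reason. *Mpo* was at 2.58, 0.499, and 32.3 CPM in vehicle, 11.8, 10.7, and 21.0 CPM in spironolactone, and 0, 0.397, and 0.0297 CPM in prednisolone libraries. *Ms4a3*, a membrane protein of granulocyte precursors, had 3, 1, and 67 counts in vehicle, 8, 16, and 32 in spironolactone, and 0 in every prednisolone library. A limit of 3 counts over the prednisolone group covers counting error there and not the spread between pools. Against it, the mean of *Ms4a3* was at least 24.4-fold lower with prednisolone than in vehicle and at least 19.6-fold lower than in spironolactone. As the gene passed the filter through those groups, the bounds are a description only. Without vehicle replicate 3 the bound against vehicle was at least 2.03-fold, and without spironolactone replicate 3 that against spironolactone was at least 12.6-fold. *Hexa*, a subunit of the lysosomal hexosaminidase that macrophages also express, was at 790.8 to 983 CPM in all 9 libraries.

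The list of specific and gelatinase granule genes (20 tested) had a median log2 fold change of -0.35 for prednisolone against vehicle, with 14 of 20 fitted lower. For spironolactone against vehicle it was -0.15, with 15 of 20 lower, and between the drugs 0.081, with 13 of 20 higher. Of all 16618 genes, 8668, 8307, and 8871 were fitted in these directions. Without vehicle replicate 3 the median turned to 0.15 with prednisolone, with 8 of 20 lower, and to 0.29 with spironolactone, with 16 of 20 higher. Without both libraries the median between the drugs turned to -0.11, with 8 of 20 fitted higher. These values include *Itgb2l* and *Orm1*, which had 0 of 3 prednisolone libraries at the filter level and passed it through the other groups. Nothing about the list is drawn from the counts and medians. *Chil3*, a chitinase-like protein shared with macrophages, had levels of 290.5, 732, and 774 CPM in vehicle, 337, 386, and 573 CPM in spironolactone, and 1259, 999, and 1167 CPM in prednisolone libraries. All prednisolone libraries were above the others, and the log2 fold change was 0.93 ± 0.38 against vehicle (edgeR adjusted *P* = 0.321) and -1.40 ± 0.38 for spironolactone against prednisolone (0.0833). *Cybb* and *Adam8*, which macrophages also express, varied by no more than 0.57 on the log2 scale over the 9 libraries.

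The list of genes of mature neutrophils (28 tested) had a median log2 fold change of -0.23 for prednisolone against vehicle, -0.22 for spironolactone against vehicle, and -0.083 between the drugs. Without vehicle replicate 3 the values against vehicle turned to 0.20 and 0.087. *Stfa3*, included here, had 0 of 3 prednisolone libraries at the filter level, and nothing about the list is drawn from its medians. *Csf3r*, the receptor for granulocyte colony-stimulating factor, was at 409, 556, and 692 CPM in vehicle, 415, 592, and 525 CPM in spironolactone, and 493, 471, and 406 CPM in prednisolone libraries, and *Cxcr2*, the receptor for neutrophil chemokines, at 21.5, 55.4, and 89.9 CPM, 32.9, 64.3, and 55.3 CPM, and 59.7, 62.0, and 47.7 CPM. The groups overlapped for both genes. Vehicle replicate 1 was low and vehicle replicate 3 high for both, so that the order of the vehicle libraries was shared with the calprotectin genes, whereas *Ngp* was lowest in vehicle replicate 2. *Ngp* had from 0.000659 counts per *Csf3r* count in prednisolone replicate 3 to 2.10 in spironolactone replicate 3. *Ly6g*, of the same list, was at 0.699, 0.156, and 13.6 CPM in vehicle, 2.72, 1.61, and 8.90 CPM in spironolactone, and 0.304, 0.367, and 0.386 CPM in prednisolone libraries. Every spironolactone library was thus above every prednisolone library, as for *Elane*, *Ngp*, *Camp*, and *Ltf* but not for *Lcn2*, *Mmp8*, and *Mmp9*.

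**Figure D4:**
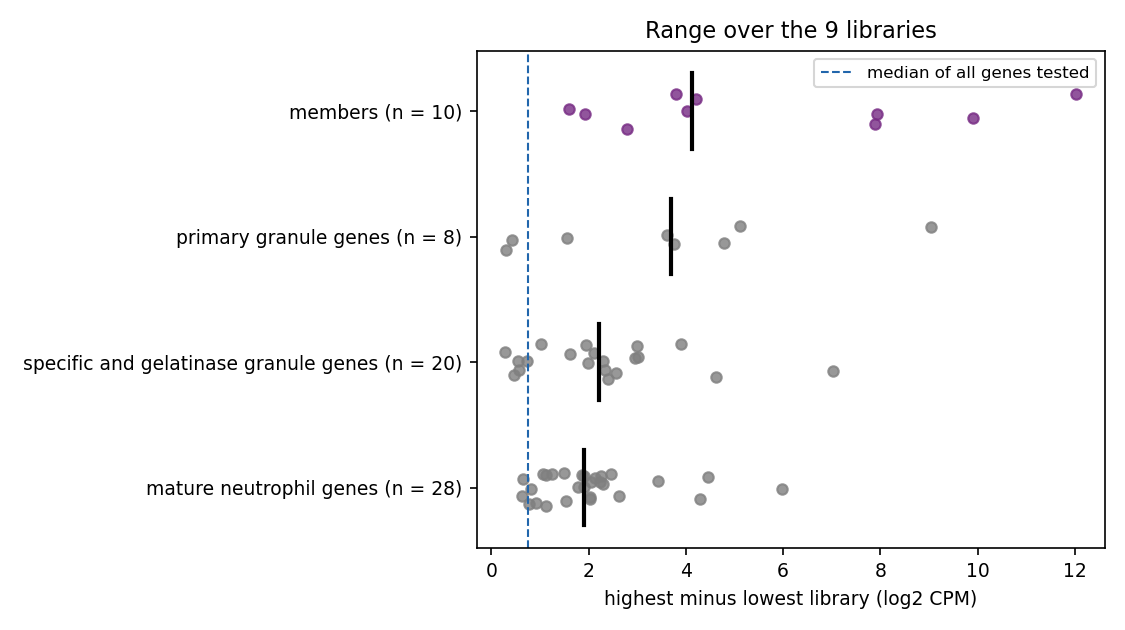
Difference between the highest and the lowest of the 9 libraries, in log2 CPM, for each of the 10 members and for the genes tested of the 3 other neutrophil lists, with 1 point per gene and a bar at the median of each list. The medians were 4.12, 3.69, 2.21, and 1.90 from top to bottom, and the dashed line marks the median of all genes tested, 0.75. Genes with 0 or 1 of 3 prednisolone libraries at the level of the low-count filter are included, 4 of 8 in the primary granule list. Their ranges rest on few counts.

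Transcription factors that drive granulocyte genes were looked at next, as a list of 10 that were all tested. With prednisolone 2 were called relative to vehicle, both lower (0.758% of all genes were called as lower): *Cebpb* (999, 1194, and 1417 CPM in vehicle; 761.6, 637, and 587 CPM in prednisolone; log2 fold change -0.86 ± 0.15, edgeR adjusted *P* = 0.0108) and *Cebpa* (503, 524, and 479 CPM; 369, 358, and 369 CPM; -0.46 ± 0.08, edgeR adjusted *P* = 0.0139). Both factors are expressed by macrophages as well. *Cebpa* was also called between the drugs, as higher with spironolactone (0.46 ± 0.08, edgeR adjusted *P* = 0.00884; 2.38% of all genes were called as higher), and each of these calls held in all 12 other ways of fitting. Without 1 library, *Cebpb* lost its call when prednisolone replicate 2 or 3 was left out (edgeR adjusted *P* up to 0.0857), and *Cebpa* against vehicle when vehicle replicate 2 or any prednisolone library was (up to 0.106). Between the drugs *Cebpa* lost it only without prednisolone replicate 2 (0.0554). *Cebpe*, needed for specific granules, had low levels (4.56, 3.84, and 11.5 CPM in vehicle, 3.39, 5.82, and 10.2 CPM in spironolactone, and 3.37, 1.90, and 3.68 CPM in prednisolone) and was not called (-1.15 ± 0.51 for prednisolone against vehicle, edgeR adjusted *P* = 0.351). With spironolactone 0 of the 10 were called relative to vehicle (0.0181% of all genes were). At an unadjusted *P* under 0.05 there was 1, *Cebpb* at -0.37 ± 0.15 (edgeR adjusted *P* = 0.449), beside 9.29% of all genes.

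Of receptors, partners, and inhibitors of the members, 16 genes were listed and 13 tested. None was called with either drug relative to vehicle (3 with prednisolone and 2 with spironolactone at an unadjusted *P* under 0.05, as were 14.2% and 9.29% of all genes), and 3 were called between the drugs (5.17% of all genes). *Tlr4*, a receptor for calprotectin, was lower with spironolactone than with prednisolone (78.6 ± 0.897 and 99.7 ± 4.11 CPM; log2 fold change -0.34 ± 0.08, edgeR adjusted *P* = 0.0311). *Ager*, another of its receptors, was higher at a low level (4.03 ± 0.731 and 2.25 ± 0.215 CPM; 0.84 ± 0.22, 0.0436), as was *Timp3*, an inhibitor of metalloproteinases (16.9 ± 5.41 and 9.38 ± 1.40 CPM; 0.85 ± 0.20, 0.0312). *Tlr4* and *Timp3* were called in all 12 other ways of fitting and *Ager* in 9. In the 9 fits without 1 library they were called in 3, 4, and 2, and all 3 lost the call without spironolactone replicate 3 or any prednisolone library, *Tlr4* and *Timp3* also without spironolactone replicate 1, *Tlr4* and *Ager* without spironolactone replicate 2, and *Ager* without vehicle replicate 2 or 3 (edgeR adjusted *P* up to 0.148). Relative to vehicle the smallest *P* were those of *Timp3* with spironolactone (1.22 ± 0.21, edgeR adjusted *P* = 0.0655) and of *Mmp2*, gelatinase A, with spironolactone (0.76 ± 0.18, 0.161) and prednisolone (0.66 ± 0.18, 0.0884). *Timp3* is also expressed by endothelial cells and fibroblasts, and a list of 3 endothelial markers summed to 96.0 to 145 CPM in spironolactone, 44.3 to 77.3 CPM in vehicle, and 55.1 to 76.0 CPM in prednisolone libraries. A list of 4 fibroblast markers overlapped between the groups, at 619 to 909.7 CPM in spironolactone, 474 to 653 CPM in vehicle, and 595 to 648 CPM in prednisolone libraries. The part of this in the *Timp3* difference was not tested. Of 10 other S100 genes, 8 were tested and 0 were called in any comparison (1.76%, 0.0181%, and 5.17% of all genes were). At an unadjusted *P* under 0.05 there were 0, 0, and 2, beside 14.2%, 9.29%, and 22.5% of all genes. *S100a11* was at 585 to 905 CPM in all 9 libraries.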

How the data were processed

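RNA of CD45+CD11b+ quadriceps cells was measured in 9 libraries, 3 per treatment. The authors aligned reads to mm39 with HISAT2 (version 2.2.1 in the submitters' processing notes) and counted them per gene with HTSeq (0.11.3); the deposited values are raw counts. The annotation release and strand setting are not given in the sources used here. Deposited tables of the authors' own DESeq2 comparisons (1.32.0; normalized means, log2 fold changes, and p-values) were not used. Lines that name no gene (17.2% to 21.8% of reads) were left out.

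The 10 genes and all lists were chosen with earlier results of these data known. Genes passing filterByExpr (minimum count 10, minimum total 15) were tested two-sided with edgeR 4.0.16 (glmQLFit with robust=TRUE, glmQLFTest, TMM, all 9 libraries in one fit, R 4.3.3), with Benjamini-Hochberg adjustment over 16618 genes and a threshold of 0.05. *Elane*, *Camp*, and *Ngp* passed the filter with 1, 1, and 2 of 3 prednisolone libraries at its level of 0.31 CPM, and so mainly through the other groups. Of the 56 other neutrophil genes tested, 7 had 0 or 1 prednisolone library at that level (*Mpo*, *Ctsg*, *Ms4a3*, *Prss57*, *Itgb2l*, *Orm1*, and *Stfa3*). The biological coefficient of variation was 0.17. Libraries of a group differed by a chi-square of 18.7 to 61.4 per degree of freedom, so that none was a repeat of another. *P* values measure the spread between pools. TPM used exon lengths of GENCODE genes of GRCm39 with the same symbol (40043 symbols, at least 90.9% of the counts of a library). Log2 CPM used a prior count of 2.

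Named genes were all 10 members. Of the other neutrophil genes they were the 5 with the highest mean level, those past the threshold, and, where none was, the 3 with the smallest *P*. Of the factor, partner, and S100 lists together they were the 3 with the smallest *P* in each comparison. Others (*Mpo*, *Ms4a3*, *Csf3r*, *Cxcr2*, *Ly6g*, *Cebpe*, *Ager*, and marker genes) were named after their values were seen. Other fits used DESeq2 1.42.0 (with all libraries, or only the pair of groups compared), limma-voom (limma 3.58.1), or edgeR restricted to that pair. Further fits changed the scaling (RLE, upper quartile, none beyond totals), removed or tightened the low-count filter, switched robust off, added the replicate number or *Xist* (for the sexes pooled) to the model, or left out 1 library. The fit was tested on simulated data.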

Additional observations from a re-analysis of the deposited data

How the results depend on the processing

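The number of the 10 genes past the threshold (0 in each comparison) depended on the test. For prednisolone against vehicle it was 1 with DESeq2 on all libraries and 1 with DESeq2 on the pair of groups, 9 with no low-count filter, 0 with any single library left out, and 1 without vehicle replicate 3 and spironolactone replicate 3, a setting chosen after seeing the data. Of all genes tested these fits called 4.64% and 4.71% (DESeq2), 3.43% (no filter), and 0.708% (without both), beside 1.76%. For spironolactone against prednisolone it was 2 and 6 with DESeq2 on all libraries and on the pair, 1 with limma-voom, 2 with edgeR on the pair, 8 with no filter, 3 with robust=FALSE, 0 to 1 with a library left out, and 1 without both libraries. All genes called were 1595 of 15892 and 13.5% (DESeq2), 4.95% (limma-voom), 9.98% (edgeR on the pair), 6.52% (no filter), 4.96% (robust=FALSE), 5.18% without vehicle replicate 3, and 1.68% without both, beside 5.17%. The fit with no filter gave very small adjusted p-values to genes whose libraries overlap (8.76e-42 for *S100a8* with prednisolone, by edgeR), so that its calls are doubtful. For spironolactone against vehicle it was 0 in every fit run. Of the 56 other neutrophil genes, those called went for prednisolone from 1 to 4 and 5 with DESeq2 (all libraries, pair), 22 with no filter, 2 with robust=FALSE, 2 with the replicate block, and 0 to 4 with a library left out. For spironolactone against vehicle they went from 0 to 12 with no filter and 0 to 1 with a library left out (1 without vehicle replicate 1). Between the drugs they went from 2 to 10 and 19 with DESeq2, 13 with edgeR on the pair, 29 with no filter, 4 with robust=FALSE, 6 with the replicate block, 1 with *Xist* as a covariate, 0 to 10 with a library left out, and 4 without both. The cause was not tested. Adjusted p-values that DESeq2 gave as NA were left out of these counts.

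Directions turned as follows (log2 fold change). For prednisolone against vehicle, leaving out libraries gave -2.13 to 0.32 for *S100a8*, -1.84 to 0.60 for *S100a9*, -1.85 to 1.14 for *Lcn2* (1.13 without vehicle replicate 3 alone), -0.81 to 0.036 for *Mmp9*, and -0.33 to 0.75 for *Mmp8*, whose value near 0 was also -0.000161 with edgeR on the pair and -0.0042 with 10 counts required in every library. For spironolactone against vehicle, leaving out libraries gave -0.70 to 1.93 for *S100a8*, -0.68 to 1.93 for *S100a9*, -0.53 to 2.53 for *Elane*, -1.18 to 3.61 for *Ngp*, -1.26 to 3.86 for *Camp*, -1.02 to 3.34 for *Ltf*, -1.02 to 2.52 for *Lcn2*, -0.48 to 0.59 for *Mmp8*, -0.59 to 0.25 for *Mmp9*, and -0.10 to 1.28 for *Retnlg*. Without both libraries *S100a8* was at 1.24, *Ltf* at 2.36, *Mmp8* at 0.31, and *Mmp9* at 0.093. In the same comparison limma-voom gave 0.75 for *S100a8*, 1.58 for *Ltf*, and 0.045 for *Mmp8*, and upper quartile scaling 0.034 for *S100a8* and 0.0091 for *Ltf*. *S100a9* was at -0.010 and -0.00632 with DESeq2 (all libraries, pair), -0.00839 with RLE, -0.000298 with library totals, and -0.00158 with no filter. With *Xist* as a covariate *S100a9* was at -0.24, *Ngp* at -0.67, *Camp* at -0.65, and *Lcn2* at -0.39. Between the drugs only *Mmp8* turned (-0.43 to 0.047 with libraries left out). The replicate numbers were not taken to pair the libraries, since not all deviations of same-numbered libraries correlated (-0.038 to 0.15). Those of differently numbered libraries correlated by -0.168 to 0.044. The highest of all were vehicle with spironolactone replicate 3 (0.151) and vehicle with spironolactone replicate 1 (0.117). Whether these libraries were handled together is not given in the sources used here and was not tested. With the replicate block 0 of the 10 genes were called in any comparison, and for spironolactone against vehicle *S100a8* was at 0.48 and *Ltf* at 0.97. Genes such as *Elane* and *Camp* in prednisolone libraries rested on 0 to 68 counts, which limits their fold changes.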
